A study of Homo sapiens with 12 samples.

Results

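ITM2A, ITM2B and ITM2C encode the ITM2 integral membrane proteins, and SPOCK1, SPOCK2 and SPOCK3 encode the testicans, a family of secreted proteoglycans. The 6 genes were taken from 58735 in the count tables: ITM2A and SPOCK1, chosen by their near loss of reads in the SETDB1 knockout, and the other 4 as the remaining members of the same families. The values they were selected on are therefore those of the knockout against the wild type in the non-directional libraries, and the member values of that contrast are given as a description with no test.

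RNA was sequenced from HAP1 cells, a near-haploid human line that derives from chronic myelogenous leukemia, and from a derivative in which the gene for the histone H3 lysine 9 methyltransferase SETDB1 was knocked out. The comparison asked how loss of SETDB1 changes gene and LINE-1 (L1) retrotransposon expression. Both genotypes, WT and SETDB1 knockout, were grown in IMDM with serum and antibiotics, and no treatment is named. Each was sequenced in 3 libraries of a non-directional kit, which loses the strand of the RNA, and in 3 of a directional kit, which preserves it, which gave 4 groups and 12 libraries. The labels call the replicates biological, do not say whether the knockout line is a single clone and do not give the edit made in SETDB1.

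ITM2 proteins are single-pass membrane proteins with a BRICHOS domain, a fold that shields aggregation-prone peptides. ITM2B (BRI2) and ITM2C (BRI3) are cut by furin-like proprotein convertases, and ITM2B is further processed by ADAM10 and by intramembrane proteases. ITM2B binds the amyloid precursor protein APP, and mutations in it cause familial British and Danish dementia. ITM2A is known from cartilage and muscle differentiation and from activated T cells. Testicans carry a follistatin-like and calcium-binding module shared with SPARC, a thyroglobulin domain and glycosaminoglycan chains of the heparan and chondroitin sulfate type. SPOCK1 is known as an inhibitor of cathepsin L and as a gene raised by TGF-beta in cancer cells, SPOCK2 and SPOCK3 as genes of the nervous system, and testicans act on the activation of MMP2 by membrane-type metalloproteinases.

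The paralogs can be aligned along their coding sequence but differ at many bases. Aligned coding sequences were 56.1% identical between ITM2A and ITM2B, 51.6% between ITM2A and ITM2C and 54.3% between ITM2B and ITM2C. For the testicans the identities were 61.0% between SPOCK1 and each of SPOCK2 and SPOCK3, and 56.0% between SPOCK2 and SPOCK3. The annotated transcripts of no pair shared a stretch of 40 identical bases (0 shared in each pair). The most conserved 60-base window of each family, read from the GRCh38 reference 5′ to 3′ on the coding strand, shows how far the members differ even there, with bases shared by all 3 members in capitals. The ITM2 window holds 36 shared bases and lies in a single exon of each gene, at chrX:79362615-79362674 (minus strand) for ITM2A, chr13:48258143-48258202 (plus) for ITM2B and chr2:230876874-230876933 (plus) for ITM2C.
ITM2A: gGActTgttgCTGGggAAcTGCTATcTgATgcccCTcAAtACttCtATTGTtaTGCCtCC
ITM2B: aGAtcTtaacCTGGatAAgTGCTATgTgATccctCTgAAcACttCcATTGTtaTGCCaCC
ITM2C: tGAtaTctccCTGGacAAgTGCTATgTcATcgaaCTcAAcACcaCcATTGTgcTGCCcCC

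The SPOCK window holds 42 shared bases and also lies in a single exon of each gene, at chr5:136988438-136988497 (minus) for SPOCK1, chr10:72066915-72066974 (minus) for SPOCK2 and chr4:166754524-166754583 (minus) for SPOCK3.
SPOCK1: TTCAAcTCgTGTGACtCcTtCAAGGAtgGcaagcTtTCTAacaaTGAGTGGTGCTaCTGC
SPOCK2: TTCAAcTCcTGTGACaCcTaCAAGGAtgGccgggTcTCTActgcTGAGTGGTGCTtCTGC
SPOCK3: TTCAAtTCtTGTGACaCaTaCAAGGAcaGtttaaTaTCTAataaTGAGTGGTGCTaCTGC

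No annotated gene overlapped an exon of any of the 6 genes, on either strand. The processed pseudogene ITM2BP1 on chromosome 17 had 0 reads in the non-directional libraries and shared no 40-base stretch with ITM2B.

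Promoter sequences of 300 bases were matched for 4 of the 6 genes in RefSeq (GRCh38.p14). ITM2A had 1 entry, SPOCK2 had 2, and ITM2C and SPOCK3 had 3 each. Only the entry nearest the annotated gene start was used, and all counts below are for that entry. The promoters of ITM2A and ITM2C are shown because the first gene was nearly lost in the knockout while its paralog was not, with every CG dinucleotide, the target of DNA methylation, in capitals. The ITM2A promoter (chrX:79367285-79367584, minus strand) held 11 CG dinucleotides, and 54.7% of 35116 promoters of the same length held at least as many. The ITM2C promoter (chr2:230864692-230864991, plus strand) held 36, a count reached by 12.7% of promoters.
ITM2A: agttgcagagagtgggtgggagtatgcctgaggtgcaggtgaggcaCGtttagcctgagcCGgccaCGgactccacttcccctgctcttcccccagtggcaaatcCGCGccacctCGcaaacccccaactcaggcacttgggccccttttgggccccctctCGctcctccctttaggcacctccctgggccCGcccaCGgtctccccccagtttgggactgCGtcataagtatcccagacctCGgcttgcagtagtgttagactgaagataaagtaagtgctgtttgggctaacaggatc
ITM2C: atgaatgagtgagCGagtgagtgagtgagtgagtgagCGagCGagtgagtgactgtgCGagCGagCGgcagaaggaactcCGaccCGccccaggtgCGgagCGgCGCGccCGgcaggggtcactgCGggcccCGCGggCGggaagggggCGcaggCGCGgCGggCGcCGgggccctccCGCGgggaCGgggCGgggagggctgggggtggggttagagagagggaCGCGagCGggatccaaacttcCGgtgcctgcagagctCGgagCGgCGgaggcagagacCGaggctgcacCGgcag

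The SPOCK3 and SPOCK2 promoters held 22 and 8 CG dinucleotides, and the median promoter held 14. The letters TATAAA were found on neither strand of the 4 promoters, and 11.5% of all promoters held them. These counts describe letters only, and neither methylation nor factor binding was measured.

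The non-directional libraries held 8921959 to 10199215 gene counts and the directional libraries 532021 to 676691. The smallest level that depth could show, taken as 3 reads in a library, was 0.294 to 0.336 counts per 1000000 gene counts (CPM) with the first kit and 4.43 to 5.64 CPM with the second. In the directional libraries 94.6% of listed reads lay in no gene and the counted strand is not settled, so a directional count may not be sense transcription. SETDB1 itself was at 59.97 ± 4.36 CPM in the wild type and fell to 11.5 ± 0.64 CPM with the knockout (mean ± SD, n = 3), a log2 fold change of -2.39 (SE 0.079, adjusted p = 7.0e-43 by edgeR's quasi-likelihood test). Differences among the 3 knockout libraries of the non-directional kit did not exceed sampling noise (chi-square per degree of freedom 0.956 to 0.991), and these were kept as 3 samples as labelled. Non-directional wild-type replicate 2 stood apart from the other two (1.82 and 2.00, against 1.03 between replicates 1 and 3), and leaving it out gave log2 differences of -5.08 for ITM2A, -5.45 for SPOCK1, -0.32 for ITM2B and 0.17 for ITM2C.

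ITM2A (ENSG00000078596, chromosome X, 79360384 to 79367667, minus strand) was read 1128, 980 and 1084 times in the 3 non-directional wild-type libraries and 33, 32 and 34 times in the 3 knockout libraries. Every knockout library therefore sat far below every wild-type library, and the 3 knockout counts were nearly equal. The level went from 111.9 ± 2.99 to 3.33 ± 0.058 CPM (SD, n = 3), a difference of -5.07 on the log2 scale (SE 0.086), or 33.6-fold lower. The reads left were 2.97% of the wild-type level, with a 95% counting interval of 2.41 to 3.63%. A knockout level of 3.33 CPM was well above the 3-read floor, so ITM2A transcripts were depleted but still counted in each library.

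SPOCK1 (ENSG00000152377, chromosome 5, 136975298 to 137598379, minus strand) was read 460, 367 and 413 times in the wild type and 12, 10 and 8 times in the knockout. The groups were again far apart, and all 3 knockout libraries still held more reads than the floor of 3. SPOCK1 went from 43.4 ± 2.04 to 1.01 ± 0.22 CPM (SD, n = 3), a log2 difference of -5.42 (SE 0.14), or 43.1-fold lower, which left 2.32% of the wild-type level (counting interval 1.56 to 3.33%).

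The paralogs of ITM2A stayed abundant. ITM2B (ENSG00000136156, chromosome 13, 48232612 to 48270357, plus strand) was read 1597, 1330 and 1478 times in the wild type and 1186, 1283 and 1291 times in the knockout. On the CPM scale each knockout library lay below each wild-type library, at 126.4 ± 4.81 against 154.3 ± 4.56 CPM (SD, n = 3). The log2 difference was -0.30 (SE 0.039), which left 81.9% of the wild-type level (counting interval 78.4 to 85.5%). ITM2C (ENSG00000135916, chromosome 2, 230864639 to 230879248, plus strand) was read 2865, 2460 and 2644 times in the wild type and 3176, 3067 and 3211 times in the knockout. This was the single member whose knockout libraries all lay above the wild-type libraries, at 318.0 ± 6.25 against 279.3 ± 3.14 CPM (SD, n = 3). The log2 difference was 0.18 (SE 0.030), or 113.8% of the wild-type level (counting interval 110.4 to 117.2%).

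The paralogs of SPOCK1 were close to the floor in both genotypes. SPOCK2 (ENSG00000107742, chromosome 10, 72059035 to 72089032, minus strand) was read 7, 9 and 10 times in the wild type and 7, 3 and 4 times in the knockout, and the groups overlapped. Its mean was 0.92 ± 0.20 CPM against 0.47 ± 0.22 CPM (SD, n = 3), and the knockout level of 51.6% had a counting interval of 24.9 to 102.6%, so a difference was not detectable at this depth. SPOCK3 (ENSG00000196104, chromosome 4, 166733384 to 167234796, minus strand) was read 10, 13 and 13 times in the wild type and 4, 7 and 2 times in the knockout, and the groups did not overlap. Its mean was 1.27 ± 0.26 CPM against 0.44 ± 0.26 CPM (SD, n = 3), 34.6% of the wild-type level with an interval of 16.9 to 66.9%. Both genes failed the filter on low counts.

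**Figure D1:**
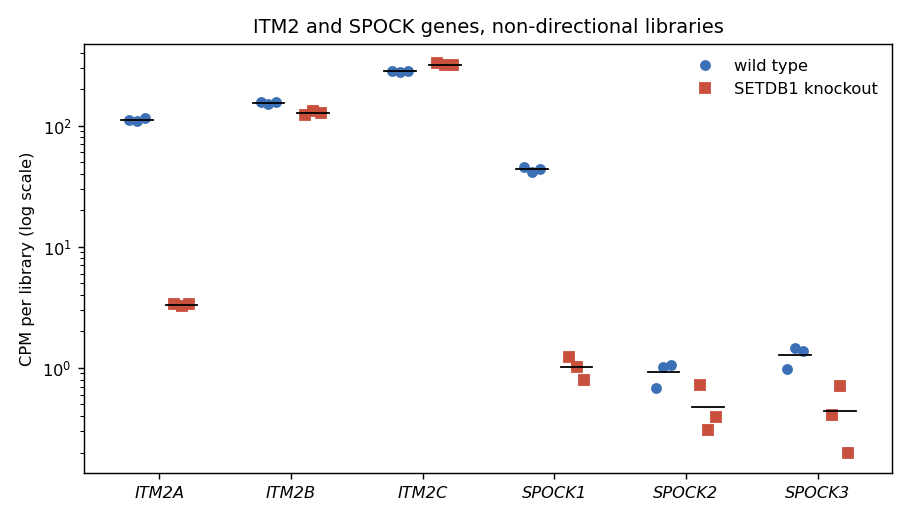
Level of each ITM2 and SPOCK gene in CPM on a log axis, with 1 point per non-directional library (blue circles, wild type; red squares, SETDB1 knockout) and a black line at the mean of 3. ITM2A and SPOCK1 drop from 111.9 to 3.33 CPM and from 43.4 to 1.01 CPM, while ITM2B and ITM2C stay above 100 CPM and SPOCK2 and SPOCK3 stay at or below 1.46 CPM in every library.

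Of the 6 genes, 4 passed the filter on low counts and all 4 were called in the edgeR fit over 13778 genes (3 lower and 1 higher), against 51.5% of all genes called, 25.9% lower and 25.5% higher. Knockout and wild-type CPM did not overlap for 5 of the 6 (4 lower and 1 higher), against 56.2% of all genes tested, 27% lower and 29.1% higher. Because the contrast chose the members, nothing is read from these counts. A fall to below 5% of the wild type was seen in 78 of the 13778 genes (0.566%), ITM2A and SPOCK1 among them. From the lowest log2 fold change up, SPOCK1 stood at place 50, with SDK1 (-5.31) at place 51, and ITM2A at place 58, with MKX (-5.08) at place 57. In cultured lines, as in any bulk sample, fewer cells with a transcript and fewer transcripts per cell cannot be told apart.

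Per length, ITM2C was the most abundant of the 6 genes in both genotypes. In CPM per kb of merged exons the wild-type order was ITM2C (107.0 ± 1.20), ITM2A (54.6 ± 1.46), ITM2B (14.4 ± 0.43), SPOCK1 (6.97 ± 0.33), SPOCK3 (0.284 ± 0.057) and SPOCK2 (0.140 ± 0.031; SD, n = 3 each), and no 2 neighbours in that order overlapped between libraries. In the knockout the order was ITM2C (121.8 ± 2.39), ITM2B (11.8 ± 0.45), ITM2A (1.62 ± 0.028), SPOCK1 (0.163 ± 0.035), SPOCK3 (0.098 ± 0.058) and SPOCK2 (0.072 ± 0.033; SD, n = 3 each). ITM2A thus moved from place 2 to place 3, and the ranges of SPOCK1, SPOCK3 and SPOCK2 overlapped with their neighbours in the order. The ITM2B level per kb rests on a long annotated transcript of 10137 bases. The order was the same with the longest transcript of each gene as the length, but for ITM2B that is this same transcript. The check therefore cannot show whether the places of ITM2A and ITM2B depend on it. In CPM without length, ITM2B (154.3) was above ITM2A (111.9) in the wild type.

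As a share of the summed ITM2 level per kb, ITM2A went from 31.0% ± 0.43 to 1.20% ± 0.011 and ITM2C from 60.8% ± 0.43 to 90.1% ± 0.45, while ITM2B made up 8.19% ± 0.13 and 8.74% ± 0.46 (SD, n = 3). The summed ITM2 level was 176.0 ± 2.82 CPM per kb in wild-type and 135.2 ± 1.97 in knockout libraries. The sum thus lost less than ITM2A did, with ITM2C higher and ITM2B lower. These shares and sums depend on the same exon lengths, that of ITM2B included. The testicans behaved differently, since SPOCK1 made up 94.2% ± 1.31 of the summed wild-type level, and the sum went from 7.40 ± 0.27 to 0.333 ± 0.090 CPM per kb (SD, n = 3). In the knockout SPOCK1 still made up 49.6% ± 5.30 of what was left.

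**Figure D2:**
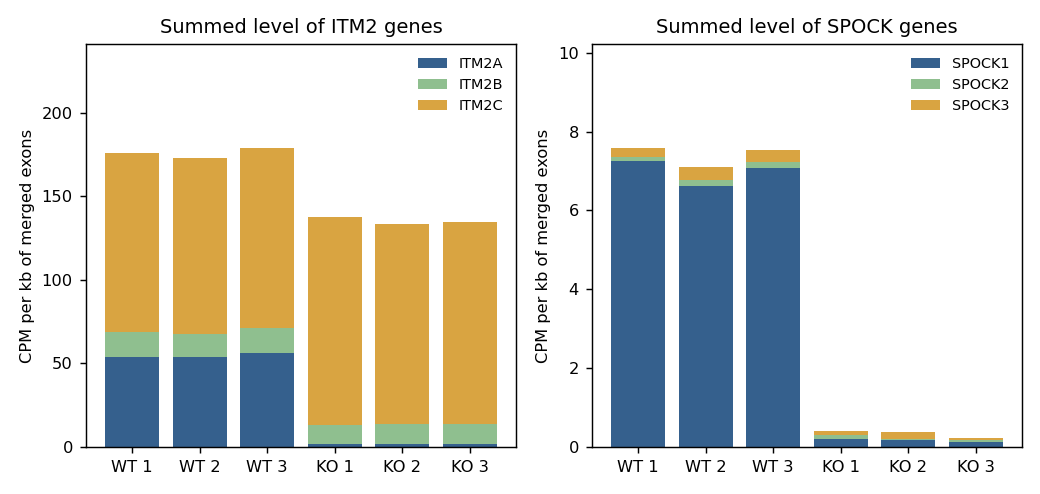
Summed level of the ITM2 genes (left) and the SPOCK genes (right) in CPM per kb of merged exons, with 1 stacked bar per non-directional library starting at 0 and colours for the family members. The knockout ITM2 bars keep the ITM2C and ITM2B parts and lose the ITM2A part (total 135.2 against 176.0), whereas the knockout SPOCK bars are close to empty (0.333 against 7.40).

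The directional libraries were not used to choose the genes, and they were tested. ITM2A was read 5, 1 and 1 times in the wild type and 0, 0 and 1 times in the knockout. The knockout level of 14.9% had a counting interval of 0.331 to 116%, and a two-sided exact permutation test over the libraries gave p = 0.20. SPOCK1 was read 2, 5 and 1 times in the wild type and 0 times in all 3 knockout libraries, and the counting interval allows a knockout level of up to 61.1% of the wild type. The same exact test gave p = 0.10, and with 3 libraries a group no smaller value can be had. SPOCK2 had 1 read in a wild-type library and 0 in the other 5, and SPOCK3 had 0 in all 6, so that neither could be measured.

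ITM2B and ITM2C passed the filter in the directional libraries, and neither was called in a fit in which 16.2% of 4745 genes were (7.67% higher and 8.49% lower). ITM2B was read 36, 57 and 38 times in the wild type and 35, 31 and 23 times in the knockout, with no overlap of the groups in CPM. Its log2 fold change was -0.50 (SE 0.20, adjusted p = 0.071 by edgeR's quasi-likelihood test), and without wild-type replicate 1 it passed the threshold (-0.63, adjusted p = 0.030). ITM2C was read 25, 20 and 19 times in the wild type and 34, 25 and 11 times in the knockout, and its fitted difference of 0.18 in log2 (SE 0.26, edgeR adjusted p = 0.70) turned to -0.14 without knockout replicate 1.

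A second readout at the same loci came from the deposited tables of long L1 elements, which hold a normalized signal for 6437 loci in the non-directional libraries. Of these loci 5 lay inside a member gene and 2 more within 100 kb of one: 2 lay in introns of SPOCK1, 3 in introns of SPOCK3, 1 outside SPOCK3 and 1 outside ITM2B. ITM2A, ITM2C and SPOCK2 had none. Whether the table positions count from 0 or 1 is not stated, and they are given here as in the tables.

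Both L1 elements in SPOCK1 introns had lower signal in the knockout, as SPOCK1 did. The L1PA2 element at 137044643 to 137050656 on chromosome 5 was read 11, 24 and 26 times in the wild type and 6, 6 and 5 times in the knockout. Its signal was 23.3 ± 10.3 against 4.78 ± 0.53 (SD, n = 3), a difference of -1.96 in log2(value + 1) (SE 0.42), and it was called lower in a limma fit in which 28.4% of 816 tested loci were called and 9.31% were lower (4.41% lower by edgeR on recovered reads). The signal equals recovered reads divided by 0.819 to 0.962 in wild-type and by 1.168 to 1.198 in knockout libraries. The same number of reads thus gives a lower signal in the knockout, at every locus. With recovered reads instead scaled per 1000000 gene counts, the difference in log2(value + 1) was -0.97. On that scale of smaller values the added 1 also shrinks the difference more. By edgeR on recovered reads, also set against gene counts, the log2 difference was -1.90. The L1PA4 element at 137417804 to 137423919 was read 7, 16 and 22 times in the wild type and 3, 0 and 0 times in the knockout, a signal of 17.2 ± 8.95 against 0.84 ± 1.45 (SD, n = 3), and was too low to be tested. For both elements the groups did not overlap, but the share of all L1 loci without overlap was not counted, so nothing is read from it. The wild-type libraries varied more widely for these elements than for SPOCK1 exons. The libraries are the same as those that chose SPOCK1, and reads of an intronic element cannot be told apart from reads of the unspliced SPOCK1 transcript.

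In SPOCK3 introns the only element whose groups did not overlap was an L1HS, the youngest L1 subfamily, at 166755896 to 166761908 on chromosome 4. It was read 0, 1 and 0 times in the wild type and 6, 5 and 2 times in the knockout. Its reads were thus higher in the genotype with fewer SPOCK3 reads. They were too few for a test, and how often groups of all L1 loci do not overlap was not counted. The other elements in or near SPOCK3 and ITM2B held 8 or fewer reads in every library, and their groups overlapped.

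**Figure D3:**
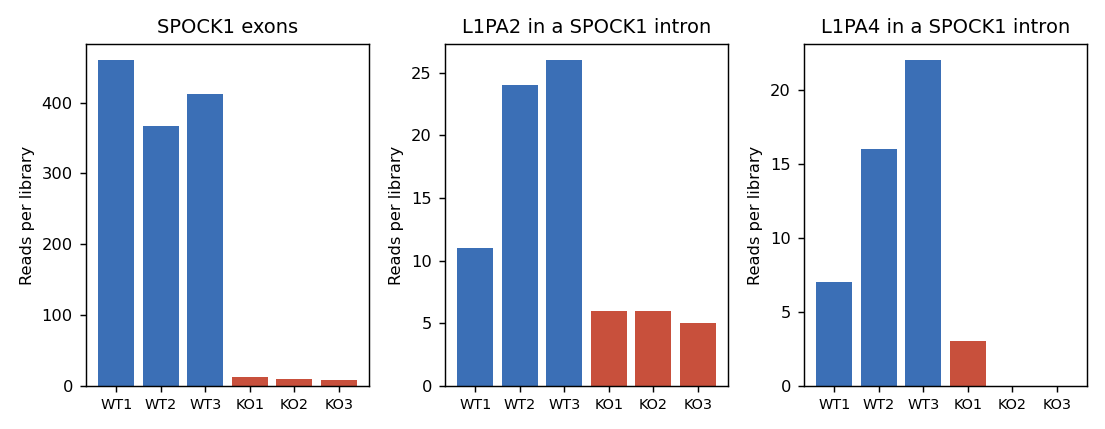
Reads per non-directional library on a linear axis from 0 for SPOCK1 exons (left), the intronic L1PA2 element (middle) and the intronic L1PA4 element (right), with wild type in blue and SETDB1 knockout in red. All 3 panels are lower in the knockout, with 8 to 12 reads left in SPOCK1 exons, 5 or 6 in the L1PA2 and 0 to 3 in the L1PA4.

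Genes around the 6 members were called about as often as all genes. Of 107 annotated genes within 500 kb of a member, 23 were tested, of which 6 were higher, 6 lower and 11 not called (25.5% higher and 25.9% lower over all genes), with a median log2 fold change of 0.027 against -0.0012 over all genes. None of the 7 annotated genes around ITM2A and none of the 7 around SPOCK3 was expressed well enough to be tested. The nearest tested genes to ITM2A were the general transcription factor subunit gene TAF9B (0.14, edgeR adjusted p = 0.0066), 1221 kb away on the side of lower coordinates, and CHMP1B2P (1.07, adjusted p = 2.1e-07), 861 kb away on the other side. Both were higher in the knockout while ITM2A was lower, but TAF9B lost its call in 1 fit over all 12 libraries (0.083, edgeR adjusted p = 0.22).

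Next to SPOCK1, the nearest tested genes were lower. KLHL3, which encodes an adaptor of a ubiquitin ligase and lies 19.1 kb away, was at 1.58 ± 0.27 and 0.84 ± 0.068 CPM (log2 fold change -0.91, SE 0.35, edgeR adjusted p = 0.023), a call that was lost by DESeq2 (adjusted p = 0.13) and without knockout replicate 1 or 3 or wild-type replicate 1 or 2 (edgeR adjusted p = 0.062, 0.073, 0.063 and 0.069). TRPC7, a cation channel gene 610 kb to the other side, was at 3.03 ± 0.52 and 0.64 ± 0.17 CPM (-2.22, SE 0.32, edgeR adjusted p = 5.2e-09). The 2 other tested genes within 500 kb were HNRNPA0 (-0.14, edgeR adjusted p = 1.6e-05) and FAM13B (0.22, adjusted p = 0.030), and FAM13B lost its call without knockout replicate 1 (adjusted p = 0.18) or wild-type replicate 2 (0.19). The nearest tested genes of SPOCK3 were lower on both sides as well, from few reads. TLL1 at 629 kb had 46 wild-type and 4 knockout reads in all (-3.47, SE 0.52, edgeR adjusted p = 2.3e-08). Its knockout libraries held at most 2 reads each, below the floor of 3. DDX60 at 981 kb had 93 and 24 reads (-2.005, SE 0.30, edgeR adjusted p = 1.7e-08).

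The tumour suppressor gene RB1 lies 33.4 kb from ITM2B and was also lower (117.3 ± 7.20 and 90.6 ± 0.70 CPM, log2 fold change -0.38, SE 0.044, edgeR adjusted p = 3.1e-12), whereas MED4 on the other side was not called (0.031, adjusted p = 0.74). The 5 tested genes around ITM2C had edgeR adjusted p of 0.15 to 0.99, with CAB39 at -0.0095 (adjusted p = 0.89) and C2orf72 at -0.04 (adjusted p = 0.89) next to it. Around SPOCK2, the genes on each side, ASCC1 (0.08, adjusted p = 0.37) and the chondroitin sulfotransferase gene CHST3 (-0.09, adjusted p = 0.23), were not called by edgeR either. By whole chromosome, the median log2 fold change of tested genes was -0.00071 on X, 0.010 on chromosome 5, -0.051 on chromosome 13, 0.0043 on chromosome 2, -0.00059 on chromosome 10 and -0.014 on chromosome 4. Shares called higher and lower were 17.7% and 33.9% on chromosome 13, 24% and 31% on chromosome 4, and 32.2% and 31.8% on X. They were 26.1% and 24.9% on chromosome 5, 25.4% and 25.1% on chromosome 2, and 27.1% and 25.2% on chromosome 10.

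**Figure D4:**
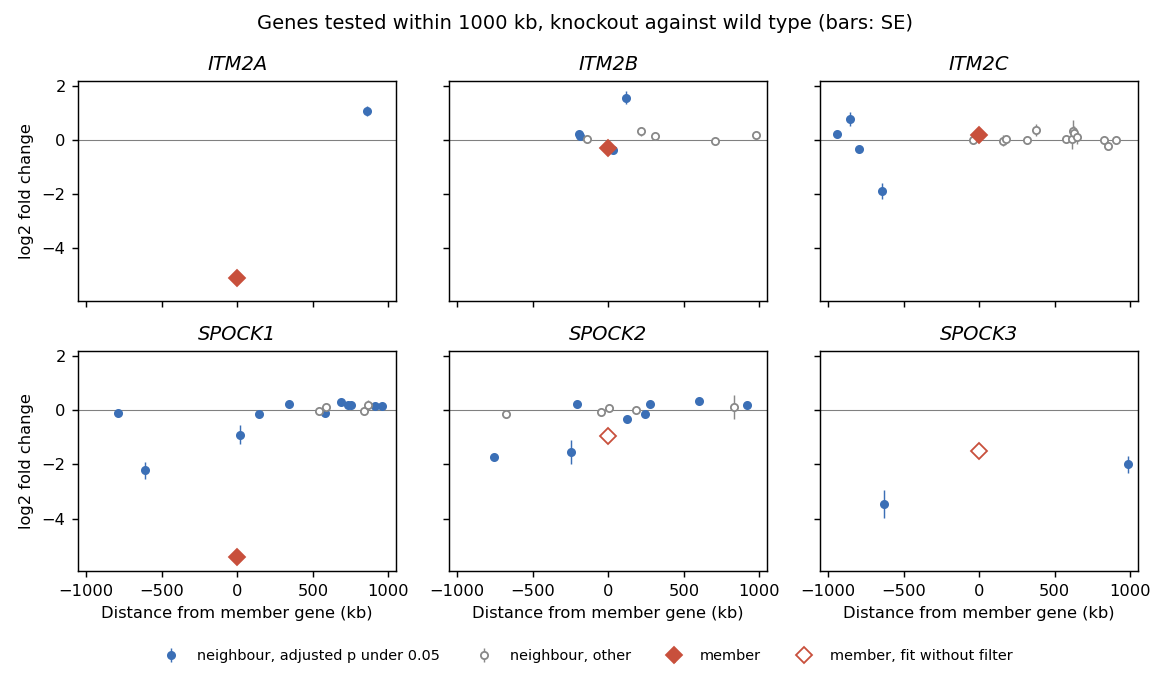
Log2 fold change (knockout against wild type, bars SE) of tested genes against their distance in kb from each member gene, with called neighbours filled, other neighbours open and the member as a red diamond at 0 (open where it failed the filter on low counts). ITM2A at -5.07 has no tested gene nearer than 861 kb, and SPOCK1 at -5.42 lies beside KLHL3 at -0.91.

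The genes that process ITM2 proteins and APP were all expressed well enough to be tested. Of 16 tested, 2 were higher, 8 lower and 6 not called, with a median log2 fold change of -0.18. Over all genes 25.5% were called higher and 25.9% lower, which is also the background for the lists that follow. The higher genes were the proprotein convertase PCSK5 (5.61 ± 0.25 to 13.97 ± 1.41 CPM, log2 fold change 1.31, edgeR adjusted p = 1.1e-14) and the sheddase ADAM10 (0.11, adjusted p = 0.012), whose call was lost without knockout replicate 1 (adjusted p = 0.053, with 1 gene of the list left higher) and in 1 fit over 12 libraries (0.41). The gamma-secretase subunits PSEN2 (-0.78, adjusted p = 1.5e-16) and NCSTN (-0.65, adjusted p = 1.1e-21) fell most. PSEN2, NCSTN and APH1A, which was also lower (-0.49, edgeR adjusted p = 7.7e-20), lie on chromosome 1, where 45.5% of 1360 tested genes were lower. PCSK5 lies on chromosome 9, where 40.1% of 554 were higher. The part of these chromosome-wide shifts in the list was not tested. Of the 6 BRICHOS genes outside ITM2 only TNMD and BRICD5 were tested. TNMD, the tenomodulin gene of tendons, fell from 3.40 ± 0.070 to 0.51 ± 0.31 CPM (-2.73, SE 0.33, edgeR adjusted p = 2.15e-11), and BRICD5 was not called (0.26, adjusted p = 0.41).

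The 3 tested relatives of the testicans in the SPARC family were all lower. SPARC, a collagen-binding matrix protein gene, was at 40.6 ± 1.93 CPM in the wild type and 1.67 ± 0.80 CPM in the knockout (log2 fold change -4.59, SE 0.14, edgeR adjusted p = 3.6e-46). SPARCL1 was at 4.59 ± 0.69 and 0.84 ± 0.43 CPM (-2.43, SE 0.27, adjusted p = 2.2e-12), and FSTL1 differed by -0.13 (adjusted p = 0.0025), a call lost without knockout replicate 2 (adjusted p = 0.078). The list median was -2.43. SPARC lies on chromosome 5 like SPOCK1, with start positions of 151661096 and 136975298.

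Among the proteases and inhibitors linked to testicans, 4 of 10 tested genes were higher and 4 lower, with a median log2 fold change of 0.0026. Without wild-type replicate 3 the list had 2 higher and 5 lower genes. CTSL, the gene of the protease cathepsin L, rose from 49.6 ± 3.39 to 113.7 ± 3.36 CPM (1.19, SE 0.050, edgeR adjusted p = 4.6e-36) and the membrane-type metalloproteinase gene MMP25 rose by 1.06 (adjusted p = 0.00010). The inhibitor gene TIMP1 (-0.80, adjusted p = 7.8e-20) and the membrane-type metalloproteinase gene MMP24 (-0.67, adjusted p = 1.5e-05) fell. CTSL lies on chromosome 9 as well.

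The enzymes that build glycosaminoglycan chains were split, with 6 of 25 tested genes higher, 7 lower and 12 not called and a median log2 fold change of 0.0081. The 2 largest losses were in chondroitin sulfate enzymes. CHST15, a sulfotransferase, had 52 reads over the wild-type libraries and 0 over the knockout libraries, and the counting interval allows up to 7.05% of the wild-type level. CSGALNACT1, which starts chondroitin chains, had 62 reads and 1 read, which is 1.55% of the wild-type level with a counting interval of 0.039 to 8.94%. The dermatan sulfate epimerase DSE (0.52, edgeR adjusted p = 0.00011) and the heparan sulfotransferase HS6ST2 (0.40, adjusted p = 4.2e-12) rose.

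Of the other proteoglycan core proteins 16 of 22 were tested, of which 5 were higher, 9 lower and 2 not called, with a median of -0.21. COL18A1, the collagen from which endostatin is cut, rose from 15.8 ± 2.47 to 45.2 ± 1.14 CPM (1.499, SE 0.079, edgeR adjusted p = 2.3e-29) and the glypican gene GPC2 rose by 0.54 (adjusted p = 0.0067), a call lost without knockout replicate 3 (adjusted p = 0.10), which left 3 genes of the list higher and 9 lower. The brain proteoglycan gene BCAN (-1.94, adjusted p = 0.00038) and GPC3 (345.7 ± 9.89 to 182.6 ± 7.33 CPM, -0.93, adjusted p = 6.1e-41) fell. TGF-beta and epithelial-mesenchymal genes were split as well, with 3 of 16 tested genes higher, 5 lower and 8 not called and a median of -0.05. In that list the fibronectin gene FN1 (0.79, edgeR adjusted p = 1.1e-23) and the receptor gene TGFBR1 (0.52, adjusted p = 3.8e-18) rose, and TWIST1 (-0.58, adjusted p = 0.00049) and the receptor gene TGFBR2 (-0.50, adjusted p = 0.000135) fell. TGFBR1 lies on chromosome 9, where 40.1% of 554 tested genes were higher. Over all 13778 genes 25.5% were called higher and 25.9% lower, and the lists were described by their counts with no test of a list.

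**Figure D5:**
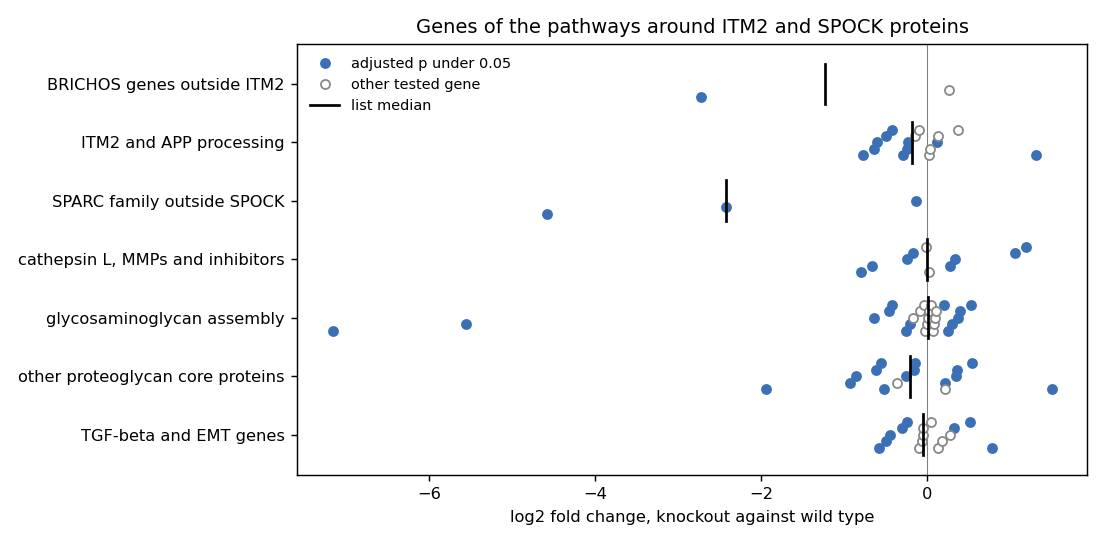
Log2 fold change (knockout against wild type) of each tested gene in 7 lists around the ITM2 and SPOCK proteins, with genes past the edgeR threshold filled, others open and a black bar at the list median. SPARC at -4.59 and the 2 glycosaminoglycan enzymes CHST15 and CSGALNACT1 lie far to the left of their lists; the fitted point of CHST15, which had 0 knockout reads, depends on the prior count of the fit.

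Some markers of other cell types differed. The summed level of 11 fibroblast and endothelial markers was 81.3 to 84.1 CPM in the wild type and 38.99 to 39.997 CPM in the knockout. Most of the wild-type sum and of its fall was PDGFRA (59.1 ± 0.76 to 19.5 ± 0.29 CPM, -1.60, edgeR adjusted p = 1.6e-35). Of the 3 tested, COL3A1 was also lower (-3.07, adjusted p = 3.3e-15). COL1A1 was slightly higher and not called (16.4 ± 0.57 to 18.4 ± 1.03 CPM, 0.16, edgeR adjusted p = 0.15). The defining markers DCN, LUM and CDH5 had 0 reads. The 6 T cell markers summed to 0 CPM in the wild type and at most 0.102 CPM in the knockout, so the T cell markers were at or near 0 beside ITM2A. Of 11 blood and leukemia markers, 6 had no reads (CD33, SPN, SPI1, MPO, HBG1 and HBG2) in these libraries labelled as chronic myelogenous leukemia. The 2 tested, ABL1 (1.40, adjusted p = 8.0e-27) and BCR (0.64, adjusted p = 6.2e-15), were higher by edgeR, against 25.5% of all genes. ABL1 lies on chromosome 9, where 40.1% of 554 tested genes were higher. The 13 mitochondrially encoded mRNAs summed to 8557 to 8898 CPM in the wild type and 7629 to 7722 CPM in the knockout, with MT-ND3 (0.32, adjusted p = 4.4e-13) and MT-ND2 (0.15, adjusted p = 2.8e-06) higher and MT-CO1 (-0.37, adjusted p = 1.9e-25) and MT-CO2 (-0.35, adjusted p = 3.0e-22) lowest of 9 that fell. The part of these shifts in the member values was not tested.

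The genes most like each lost gene were found by the root mean square difference of log2(CPM + 1) over the 6 non-directional libraries, as a description. For SPOCK1 these were HCP5 (0.402), SPARC (0.421), FAM198B (0.588), JCAD (0.668) and IFI16 (0.727). All 5 lay at 26.9 to 59.0 CPM in the wild type and at or below 2.42 CPM in the knockout. HCP5, a transcript of the MHC class I region, went from 34.3 ± 4.19 to 0.54 ± 0.11 CPM, and the DNA sensor gene IFI16 had 2 knockout reads against 1681, 0.114% of the wild-type level with a counting interval of 0.0138 to 0.413%. For ITM2A the likest genes were less close, with the immunoproteasome subunit gene PSMB8 (0.741), the adhesion scaffold gene NEDD9 (0.981), the hyaluronan receptor gene CD44 (1.08), SLFN11 (1.11) and FSTL4 (1.13). PSMB8 fell from 57.1 ± 0.12 to 4.75 ± 0.53 CPM and CD44 from 56.8 ± 1.71 to 8.76 ± 1.07 CPM (SD, n = 3), which left 8.30% and 15.4% of the wild-type level, against 2.97% for ITM2A. SPOCK1 was at place 11 of likeness to ITM2A and ITM2A at place 38 of likeness to SPOCK1 (difference 1.24 each way), and with each gene centred on its own wild-type mean both were at place 4. Both genes were chosen by their near loss in these same libraries, and centring compares mainly that fall. Nothing is therefore read from their likeness to each other. The choice of measure decides the list, since 0 of the 5 genes likest to ITM2A and 1 of the 5 likest to SPOCK1 were also among the 5 likest after centring.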

How the data were processed

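No paper describing these libraries was used. The members and the gene lists were chosen with earlier results of these data known. The authors deposited raw gene counts for 12 libraries; per the labels the submitters' processing notes name STAR 2.6.0a, Trim Galore 0.4.4 and HTSeq 0.11.1 and hg38. For the 6 non-directional libraries they also deposited an L1 signal, whose non-zero values were all whole reads (within 0.01 of a whole number) once divided by the smallest non-zero value of the library. All 58735 IDs matched GENCODE 29 (GRCh38), and the closing lines of each table (reads in no gene or not unique) stayed out of library sizes and tests, which left 80.3 to 80.4% of listed reads in genes with the non-directional and 5.23 to 5.30% with the directional kit. Each kit was fitted alone with the quasi-likelihood test of edgeR 4.0.16 in R 4.3.3 (filterByExpr with minimum count 10 and minimum total 15, TMM, Benjamini-Hochberg adjustment over all genes, threshold 0.05). Standard errors are the absolute log2 fold change over the square root of F. L1 loci were fitted with limma 3.58.1 on log2(signal + 1), a scale that shrinks differences at low signal. The edgeR fit of recovered L1 reads was added after the values were seen. CPM are per 1000000 gene counts. Counting intervals are exact conditional 95% intervals and, like the 3-read floor, cover counting error only, since reads are not independent molecules. Nothing beyond the titles says that replicates came from separate cultures, so p-values measure the spread between these libraries. Coding sequences were aligned with mafft 7.526. Named are SETDB1, the 6 members and, per list and direction, the 2 called genes of largest change. Also named are the nearest tested gene on each side of a member and the 5 genes most like ITM2A and SPOCK1. MKX, SDK1, APH1A, BRICD5, COL1A1, FSTL1, HNRNPA0, FAM13B and ITM2BP1 were chosen after their values were seen. The scripts were tested on simulated data.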

Additional observations from a re-analysis of the deposited data

How the results depend on the processing

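Alternatives were DESeq2's Wald test and size factors, no filter on low counts, 1 fit over the 12 libraries, the knockout libraries summed and counted as 1, a replicate block and leaving out each library. ITM2A, ITM2B, ITM2C and SPOCK1 kept their direction in all of them in the non-directional libraries. Leaving out 1 library gave -5.09 to -5.05 for ITM2A, -0.32 to -0.27 for ITM2B, 0.16 to 0.19 for ITM2C and -5.58 to -5.26 for SPOCK1. The fit over 12 libraries, which shifted the median of all genes to -0.05, gave -5.13 for ITM2A and 0.12 for ITM2C. In the directional libraries ITM2B ranged from -0.63 to -0.35 (adjusted p 0.030 to 0.41 over all alternatives, the highest by DESeq2), past the threshold only without wild-type replicate 1, and ITM2C from -0.14 to 0.49, reversed only without knockout replicate 1; the cause was not tested. The L1PA2 element in SPOCK1 ranged from -2.39 to -1.75 without 1 library and was at -1.90 by edgeR on recovered reads. In log2(value + 1) per 1000000 gene counts, where the added 1 shrinks the difference more, it was at -0.97.

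Replicate numbers did not pair the samples (correlations of same-numbered deviations -0.032 to 0.0040 with the non-directional and -0.023 to 0.018 with the directional kit). With the replicate number as a block ITM2A was at -5.07, SPOCK1 at -5.42, ITM2B at -0.30 and ITM2C at 0.18 in the non-directional libraries, ITM2B at -0.48 (edgeR adjusted p = 0.096) and ITM2C at 0.18 in the directional ones and the L1PA2 element at -1.96; neither directional gene passed the threshold.

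Requiring an absolute log2 fold change of 1 left 498 of 3517 higher and 576 of 3572 lower calls, and by construction cut the lists: ITM2 and APP processing from 10 to 1, cathepsin L and metalloproteinases from 8 to 2, glycosaminoglycan assembly from 13 to 2, proteoglycans from 14 to 2, TGF-beta genes from 8 to 0 and neighbours from 12 to 2, while a window of 1000 kb raised the neighbour calls to 30. DESeq2's Wald test called 164 higher and 166 lower genes in the directional libraries against 364 and 403. By DESeq2's Wald test KLHL3, FAM13B, GPC2 and ADAM10 lost their calls (adjusted p = 0.13, 0.14, 0.064 and 0.058); FAM13B also lost it with no filter (edgeR, 0.058) and over 12 libraries (0.18). Other lengths for the level order and centring for the likeness are given with those results. Low gene counts limit SPOCK2 and SPOCK3 with both kits, and all but ITM2B and ITM2C with the directional kit, where most listed reads lay in no gene.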
